A study of Arabidopsis thaliana with 222 samples.

Results

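The genes described here are the auxin coreceptors of Arabidopsis thaliana: the 6 TIR1/AFB F-box genes (TIR1 and AFB1 to AFB5) and the 29 Aux/IAA repressor genes. They were chosen by gene identifier from family membership, with earlier results of these data known, and make up 35 of the 32311 genes counted. RNA of whole roots was sequenced in 222 libraries, 6 for each of 37 groups of 1 plant genotype and 1 bacterial treatment. The bacterial treatments, each a single strain on axenically germinated seedlings transferred to agar, were L180 and RMF8 (Chryseobacterium), L196 (Exiguobacterium), L264 (Leifsonia), L339, L343 and L412 (Sphingomonas), L344 (Bosea), L359 (Flavobacterium), L384 (Pararhizobium), L469 (Methylobacterium), L76 (Acidovorax), RCL115 (Bacillus cereus group), RMF217 (Paenibacillus), RMF27 (Bacillus megaterium) and RMF331 (Luteibacter), with NB for seedlings transferred to plates without bacteria. The genotypes were arf7 arf19 (insertions in the auxin response factors ARF7 and ARF19; L344 and NB), nph4-1 (an ARF7 allele; L344, L359, RCL115 and NB), lbd16-1 (the lateral root regulator LBD16; L180, L343, L359, L384, L412, L76, RMF217, RMF8 and NB), gnom184 (an allele of GNOM, which guides vesicle traffic of auxin carriers; L196, L339, L469, RMF27 and NB) and wild-type Col-0 (all 16 strains and NB). Roots were collected a week after transfer and pooled for each library. Each mutant is 1 line or allele, and a difference between a mutant and Col-0 is a difference between these lines.

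TIR1/AFB proteins are the substrate-binding subunits of an SCF ubiquitin ligase, and Aux/IAA proteins repress transcription by binding auxin response factors (ARFs) and TOPLESS corepressors. Auxin sits between an F-box protein and the degron of an Aux/IAA protein and holds them together, so the repressor is ubiquitinated and degraded and the ARF is freed. Many Aux/IAA genes are themselves switched on by ARFs, which makes their transcripts a common readout of auxin response, and in roots this loop governs lateral root founder cells, meristem size and bending. A transcript level does not report the level or stability of the protein.

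Library totals ran from 10255732 to 29735838 counts, and 21635 genes, 33 of the 35 members among them, passed the filter on low counts. Levels are given as CPM, a count relative to the scaled library total, after TMM scaling between libraries. ARF7 stood at 28.6 to 32.7 CPM in arf7 arf19 libraries and 47.8 to 61.5 CPM in nph4-1 libraries, against 58.7 to 113 CPM in Col-0 libraries, and ARF19 at 7.45 to 11.8 CPM in arf7 arf19, against 26.1 to 68.2 CPM in Col-0. LBD16 levels overlapped, with a median of 3.24 CPM in lbd16-1 and 6.615 CPM in Col-0, and the level of GNOM does not test its allele. All 8 root markers were detected, with WOX5, the marker of the quiescent center, at 0 in 3 libraries, and all 8 shoot markers were above 0 in every library, with a sum of 168 to 6120 CPM (median 447). A higher level in whole roots cannot be told apart from a larger share of the cells that make the transcript.

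The microRNA miR393 guides cleavage of TIR1/AFB transcripts, so its sequence is shown first, with the best-matching stretch of each of the 6 F-box genes, close or not. Capitals in the microRNA mark its seed (bases 2 to 8), and capitals in the target stretches mark bases that differ from a perfect complement of the microRNA. The genome is TAIR10.1 (RefSeq) and both miR393 genes give the same mature sequence.
miR393a-5p and miR393b-5p: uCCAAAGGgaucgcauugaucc
TIR1 (chr3:23273727-23273748, - strand): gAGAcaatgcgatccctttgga
AFB1 (chr4:1405341-1405362, - strand): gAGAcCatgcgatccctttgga
AFB2 (chr3:9870237-9870258, + strand): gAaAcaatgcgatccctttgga
AFB3 (chr1:4369085-4369106, - strand): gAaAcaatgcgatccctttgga
AFB4 (chr4:12615419-12615440, - strand): ggTtcaaAgAgCtTActttggT
AFB5 (chr5:20335762-20335783, - strand): ggatcTCtTGTTtccctGAgga
All 6 stretches lie in coding exons. AFB2 and AFB3 share 1 sequence with 2 mismatches, TIR1 has 3 and AFB1 has 4, while the best stretches in AFB4 and AFB5 have 7 and 8. The 29 Aux/IAA transcripts had 8 to 10 mismatches at best, so AFB5 matched no better than the closest of them and AFB4 had 1 mismatch fewer. Mature miR393 was not measured by these libraries of polyadenylated RNA, and its precursor genes MIR393A and MIR393B held 13 and 12 counts over all 222 libraries.

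Among the Aux/IAA proteins, 23 carry the glycine-tryptophan-proline-proline core of the degron that auxin bridges to the F-box protein. This exact core is absent from IAA20, IAA30, IAA31, IAA32, IAA33 and IAA34, and variants of it were not searched for. ARFs bind auxin response elements, and their letters were counted on both strands of the 250 bases before each annotated start. TGTCTC occurred in 9 of 29 Aux/IAA and 1 of 6 TIR1/AFB windows, beside 10.9% of 27443 windows of all genes. TGTCGG occurred in 6 of 29 and 0 of 6 windows, beside 4.16% of all, and TGTCNN, which includes both others, in 24 of 29 and 6 of 6, beside 74.5% of all. The windows of 4 genes with large responses below are shown, with TGTCTC and TGTCGG, or their reverse complements, in capitals.
IAA19 promoter (chr3:5263751-5264000, + strand): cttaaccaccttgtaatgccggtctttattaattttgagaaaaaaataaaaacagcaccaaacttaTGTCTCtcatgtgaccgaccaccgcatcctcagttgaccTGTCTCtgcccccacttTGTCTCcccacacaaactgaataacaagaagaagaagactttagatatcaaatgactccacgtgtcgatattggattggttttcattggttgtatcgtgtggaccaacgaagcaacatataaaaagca
IAA5 promoter (chr1:5366498-5366747, - strand): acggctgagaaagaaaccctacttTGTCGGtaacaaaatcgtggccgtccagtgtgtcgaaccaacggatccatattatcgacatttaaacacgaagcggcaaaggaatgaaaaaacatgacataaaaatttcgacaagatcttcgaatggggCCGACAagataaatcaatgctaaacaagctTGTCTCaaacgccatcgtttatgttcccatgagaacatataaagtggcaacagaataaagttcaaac
IAA1 promoter (chr4:8360746-8360995, + strand): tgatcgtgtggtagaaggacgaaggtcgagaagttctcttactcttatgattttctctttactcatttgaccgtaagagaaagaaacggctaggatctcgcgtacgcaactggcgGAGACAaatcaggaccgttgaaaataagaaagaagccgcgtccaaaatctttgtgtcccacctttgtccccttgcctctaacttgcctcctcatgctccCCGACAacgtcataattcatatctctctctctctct
IAA2 promoter (chr3:8182096-8182345, - strand): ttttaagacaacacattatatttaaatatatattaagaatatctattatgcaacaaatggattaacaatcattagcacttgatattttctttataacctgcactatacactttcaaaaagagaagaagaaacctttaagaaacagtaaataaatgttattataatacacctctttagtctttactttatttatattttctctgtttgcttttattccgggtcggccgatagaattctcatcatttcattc
IAA19 holds 3 TGTCTC matches, IAA5 1 TGTCTC and 2 TGTCGG, and IAA1 1 of each. IAA2, IAA3, IAA9, IAA11, IAA14 and IAA31, which are often called below, hold neither in this window, which says only that these letters are not there. Windows not shown that hold TGTCTC or TGTCGG are those of IAA6, IAA8, IAA12, IAA13, IAA16, IAA20, IAA27, IAA30, IAA32 and IAA34, and of AFB5. Whether these letters go with the responses was not tested.

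In axenic Col-0 roots the members spanned a wide range. Levels between genes are given per kb of exon. IAA9 was at 169 ± 4.48 CPM per kb and IAA16 at 154 ± 4.04 (SD, n = 6), and their libraries did not overlap with each other or with any gene below. IAA17 (89.3 ± 15.3), a repressor known as AXR3 for auxin-resistant roots, and IAA28 (84.9 ± 5.70), a repressor of lateral root formation, followed with overlapping libraries, then IAA8 (57.8 ± 8.03). Among the receptors, AFB2 (37.2 ± 2.00), AFB1 (33.6 ± 3.79) and TIR1 (33.4 ± 1.99) overlapped, AFB5 (21.3 ± 1.78) and AFB3 (21.2 ± 2.03) overlapped below them, and AFB4 was lowest at 6.10 ± 0.38. Repressors called with bacteria stood at all heights of this order. IAA9, at its top, rose with 9 strains in Col-0, and others called with 7 or more strains lay lower, with IAA2 at 25.5 ± 1.76, IAA3 at 10.4 ± 1.28, IAA14 at 10.2 ± 1.44, IAA19 at 7.24 ± 1.55, IAA11 at 5.94 ± 0.93, IAA1 at 5.93 ± 1.00 and IAA31 at 1.95 ± 0.49 CPM per kb. IAA15 (36 counts over 222 libraries) and IAA32 (667 counts) did not pass the filter on low counts and were not tested.

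**Figure D1:**
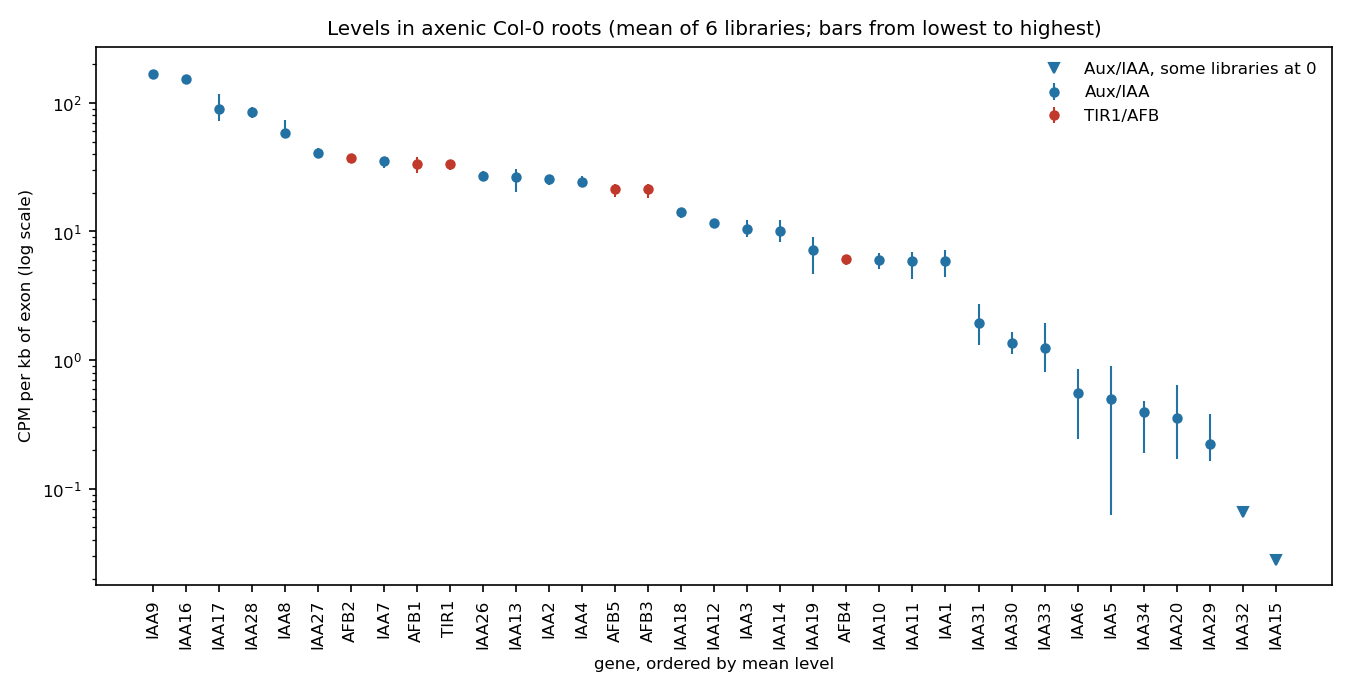
Level of each of the 35 members in axenic Col-0 roots in CPM per kb of exon on a log axis, as the mean of 6 libraries with bars from the lowest to the highest library (red TIR1/AFB, blue Aux/IAA, triangles for genes at 0 in some libraries). IAA9 and IAA16 stand above the rest at 169 and 154 CPM per kb, and AFB4 is the lowest receptor at 6.10.

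For some members part of the transcript is shared with an overlapping gene on the other strand, and the strand setting of the counting is not given in the sources used here, so their values are uncertain. By shared stretches of 31 bases this is 49.9% of IAA32, which was not tested, 42.5% of IAA13, 37.3% of IAA3, 29.1% of AFB3, 23.9% of IAA10, 18% of AFB1 and 13.2% of AFB4. The partner of IAA3, AT1G04230, had 15.0 CPM in axenic Col-0, beside 14.1 CPM for IAA3, and the partner of AFB4, AT4G24380, had 13.0 CPM beside 17.8 CPM. AFB3 overlaps with AT1G12810, at 44.0 CPM beside 47.5 CPM for AFB3, and with AT1G04977, at 4.34 CPM. The partner of IAA13, AT2G33300, had 0.0157 CPM beside 59.2 CPM, and that of IAA10, AT1G04105, had 0 CPM beside 7.91 CPM. AFB1, at 78.1 CPM, overlaps with AT4G03180, at 14.6 CPM, and with AT4G04455, at 5.38 CPM. The low-level IAA5, at 0.392 CPM, shares 2.4% with AT1G15570, at 10.8 CPM. IAA34, at 0.401 CPM, shares 9.87% with AT1G15060 on the same strand, at 26 CPM. IAA11 overlaps with AT4G28650, at 43.9 CPM beside 7.54 CPM for IAA11, but shares 0% of such stretches. In the Col-0 comparisons that follow, AT1G04230 fell with 2 strains and AT4G24380 with 13, while AT1G15570 rose with 2 and AT4G28650 with 8.

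The first comparison asked which coreceptor genes changed in wild-type roots with each strain. Aux/IAA genes rose with most strains, IAA2 with the largest number, and IAA31, IAA19 and IAA1 by the largest folds with RMF27, while the receptors moved by small amounts. Each strain group was set against the same 6 NB libraries, so the 16 contrasts are not independent of each other. With edgeR's quasi-likelihood test and Benjamini-Hochberg adjustment over all 21635 genes, members were called (adjusted p under 0.05) in 141 of 528 gene and strain pairs, 128 higher and 13 lower. Of all pairs over all genes, 12.6% were called higher and 12.8% lower, against 24.2% and 2.46% of the members' pairs. Calls of the members were thus higher in 90.8%, beside 49.5% for all genes. By gene, 27 of 33 tested members were called with some strain, 19 only higher, 4 only lower and 4 in both directions. The share of all genes called with at least 1 strain was not computed, so this count by gene has no background beside it.

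RMF27, the Bacillus megaterium strain, gave the most calls, 22 of 33 members, where 44.3% of all genes were called; 20 rose, beside 21.7% of all genes, and 2 fell, beside 22.6%. The median log2 fold change of the 27 tested Aux/IAA genes was 0.44 with RMF27, beside 0.00 over all genes. All 16 called members rose with L343 (35.4% of all genes called, 17.4% higher). All 13 rose with L264 (33.5%, 16.9% higher) and all 13 with RMF331 (27.3%, 13.6% higher). With L469, 12 members were called (35.3% of all genes), and with RMF8 11 (33.8%). These 6 strains also called between 27.3% and 44.3% of all genes. The members' share exceeded that of all genes by over 10 percentage points for RMF27, L343 and RMF331.

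Other strains gave a share of called members near or below that of all genes. This was 10 members with L344 (31.1% of all genes called), 9 with L180 (33.8%), 8 with L196 (21.2%), 8 with L339 (24.9%) and 7 with L76 (27.2%). L384 called 6 members, 3 in each direction (27.6% of all genes), L359 5 (15.1%) and L412 1, IAA2 (11.6%). RCL115 and RMF217 called 0 members with edgeR, where 0.453% and 4.06% of all genes were called, and at an unadjusted p under 0.05 they had 1 and 6 members. DESeq2 called 0 and 0 there. In the plot of all members by strain, the dots gather in the rows of IAA2, IAA31 and IAA14.

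**Figure D2:**
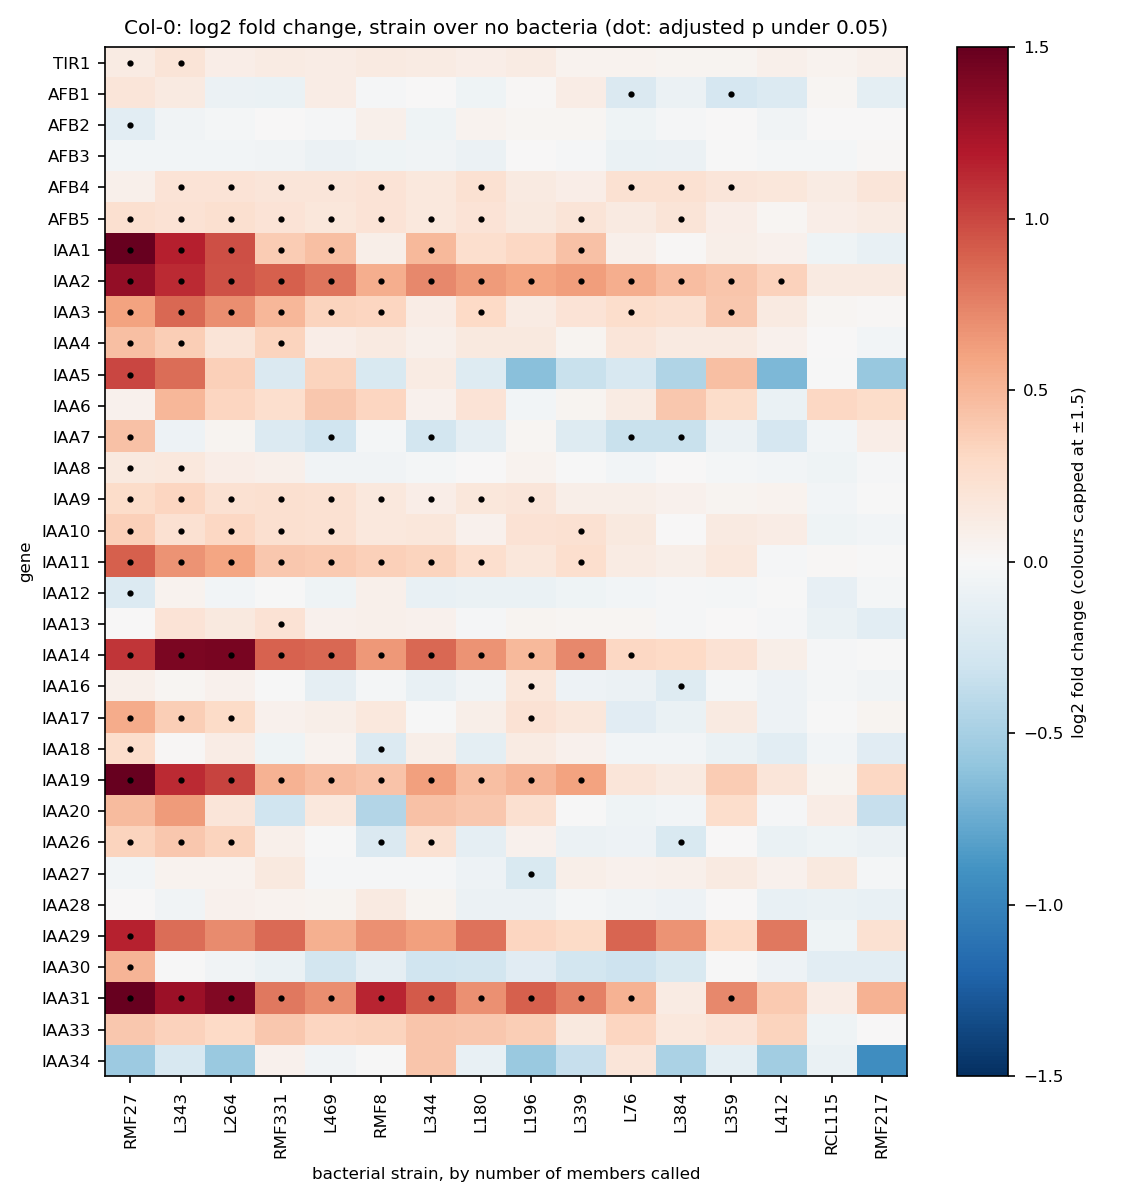
Log2 fold change of the 33 tested members (rows) in Col-0 with each of the 16 strains over NB (columns, from most to fewest members called), with a dot where the adjusted p was under 0.05. IAA2 carries dots with 14 strains, IAA31 with 12 and IAA14 with 11, all of them higher.

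The receptor genes changed little in Col-0. AFB5 (AT5G49980, chr5:20333897-20336671, - strand) rose with 10 of 16 strains and AFB4 (AT4G24390, chr4:12613076-12616238, - strand) with 9, and both had positive fold changes with all 16. These are the 2 receptors that recognize picloram-type auxins well and that lack a close miR393 match. All 16 contrasts share the same NB libraries, so the common sign is not 16 separate results. In the 16 mutant strain contrasts AFB5 was called higher in 3, and AFB4 higher in 2 and lower in 1. Without bacteria both had positive fold changes over Col-0 in all 4 mutants, called for AFB4 in 2 and for AFB5 in 1. Whether the level of the NB libraries has a part in the Col-0 calls was not tested. AFB5 had 61.1, 63.0 and 65.9 CPM (lowest, median, highest) with L264, against 46.6, 53.7 and 59.0 CPM in NB, a log2 fold change of 0.24 ± 0.06 (SE, adjusted p = 0.000522). No L264 library overlapped with NB. AFB4 had 17.1, 21.6 and 22.7 CPM with L180, against 16.0, 17.8 and 19.3 CPM in NB (0.23 ± 0.07, adjusted p = 0.00266), and here the groups overlapped. Its overlapping partner on the other strand moved down over the same comparisons (above), and the part of shared reads in the AFB4 result was not tested.

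TIR1 (AT3G62980, chr3:23273065-23276630, - strand), the founding receptor, rose with L343 and RMF27. With L343 it had 95.4, 98.6 and 113 CPM, against 79.7, 89.3 and 95.6 CPM in NB (0.20 ± 0.05, adjusted p = 0.002), and the lowest L343 library lay just under the highest NB library. With RMF27 its log2 fold change was 0.12 (adjusted p = 0.0498). AFB1 (AT4G03190, chr4:1404887-1407402, - strand), which in roots serves the fast, non-transcriptional auxin response, fell with L359 and L76. It had 53.3, 65.3 and 75.7 CPM with L359, against 65.9, 78.4 and 88.2 CPM in NB (-0.25 ± 0.09, adjusted p = 0.0312), with wide overlap. This call was lost without NB replicate 1 or 3 or L359 replicate 3, 4 or 5 (-0.20 to -0.25). AFB2 fell only with RMF27 among the 16 strains, to 84.6, 90.6 and 96.7 CPM, against 95.4, 101 and 110 CPM in NB (-0.16 ± 0.04, adjusted p = 0.000382), and the ranges met at their ends. AFB3 was called with 0 of 16 strains by edgeR, with log2 fold changes of -0.10 to 0.02, at an unadjusted p under 0.05 with 1 strain, and by DESeq2 with 0.

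IAA2 (AT3G23030, chr3:8180646-8182095, - strand), an auxin-induced repressor, rose with 14 of 16 strains, all but RCL115 and RMF217. With RMF27 it had 81.8, 84.5 and 94.8 CPM, against 31.1, 35.4 and 36.8 CPM in NB, a log2 fold change of 1.32 ± 0.08 (adjusted p = 4.33e-34). Every RMF27 library was above every NB library. Across the 14 strains its change ran from 0.34 (L412) over 1.11 (L343) to 1.32 on the log2 scale.

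IAA31 (AT3G17600, chr3:6019973-6021147, - strand), which lacks the degron core, rose with 12 strains. It had 7.05, 8.90 and 10.7 CPM with RMF27, against 1.16, 1.74 and 2.43 CPM in NB (2.37 ± 0.19, adjusted p = 4.19e-24), the largest change of a member in Col-0. L264 (1.39), L343 (1.28) and RMF8 (1.15) came next. Of the 5 tested genes without the core, it alone was called with more than 1 strain in Col-0.

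IAA19 (AT3G15540, chr3:5264001-5265695, + strand), known as MSG2 for its part in tropic bending and lateral root formation, and IAA1 (AT4G14560, chr4:8360996-8362033, + strand), known as AXR5, rose with 10 and 7 strains. IAA19 had 20.9, 27.0 and 36.5 CPM with RMF27, against 4.69, 7.64 and 9.15 CPM in NB (1.97 ± 0.14, adjusted p = 1.48e-29). IAA1 had 13.5, 20.5 and 23.2 CPM with RMF27, against 4.21, 5.88 and 6.80 CPM in NB (1.83 ± 0.13, adjusted p = 4.97e-29). In both genes every RMF27 library was above every NB library. The low-level repressor IAA5 was called with RMF27 alone: 0.25, 0.81 and 1.11 CPM, against 0.05, 0.41 and 0.70 CPM in NB (1.00 ± 0.38, adjusted p = 0.0236), and its groups overlapped. The call was lost without NB replicate 4 (0.87) or 6 (0.74) or RMF27 replicate 3 (0.85).

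IAA14 (AT4G14550, chr4:8347822-8350263, - strand), known as SLR because its stabilized form abolishes lateral roots, rose with 11 strains, and here L264 and L343, not RMF27, gave the larger changes. It had 44.4, 50.6 and 57.1 CPM with L264, against 15.6, 18.5 and 23.4 CPM in NB (1.42 ± 0.12, adjusted p = 5.65e-22), with no overlap. Its log2 fold change was 1.41 with L343 and 1.07 with RMF27; these strains were not tested against each other. A single L264 library had a shoot marker sum of 1670 CPM, beside a group median of 453.

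IAA3, IAA11 and IAA9 rose with 9 strains each. IAA3 (AT1G04240, chr1:1128149-1129689, - strand), known as SHY2, which restrains root meristem size, had 22.0, 26.5 and 29.6 CPM with L343, against 12.4, 14.0 and 16.8 CPM in NB (0.86 ± 0.10, adjusted p = 9.34e-13). IAA9 (AT5G65670, chr5:26253408-26256544, + strand), the most abundant member per kb, had 419, 455 and 496 CPM with L343, against 352, 361 and 376 CPM in NB (0.32 ± 0.04, adjusted p = 1.01e-12). IAA11 had 12.1, 14.1 and 15.3 CPM with RMF27, against 5.38, 7.74 and 8.85 CPM in NB (0.89 ± 0.10, adjusted p = 9.79e-16). None of these 3 pairs of groups overlapped, although the fold of IAA9 was small.

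IAA7 (AT3G23050, chr3:8194606-8197161, + strand), known as AXR2, ran against the family: it fell with L344, L384, L469 and L76 and rose with RMF27. With L384 it had 49.0, 52.9 and 60.2 CPM, against 59.7, 68.9 and 71.7 CPM in NB (-0.34 ± 0.09, adjusted p = 0.00287), with overlap at the ends. With RMF27 it had 82.9, 91.9 and 104 CPM, against the same NB libraries (0.44 ± 0.09, adjusted p = 2.07e-05), all above NB. The root marker sum was 573 to 630 CPM with RMF27, against 335 to 405 CPM in NB, and its part in the RMF27 results was not tested. Shoot marker sums with RMF27 (290 to 416 CPM) and in NB (374 to 596 CPM) overlapped.

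**Figure D3:**
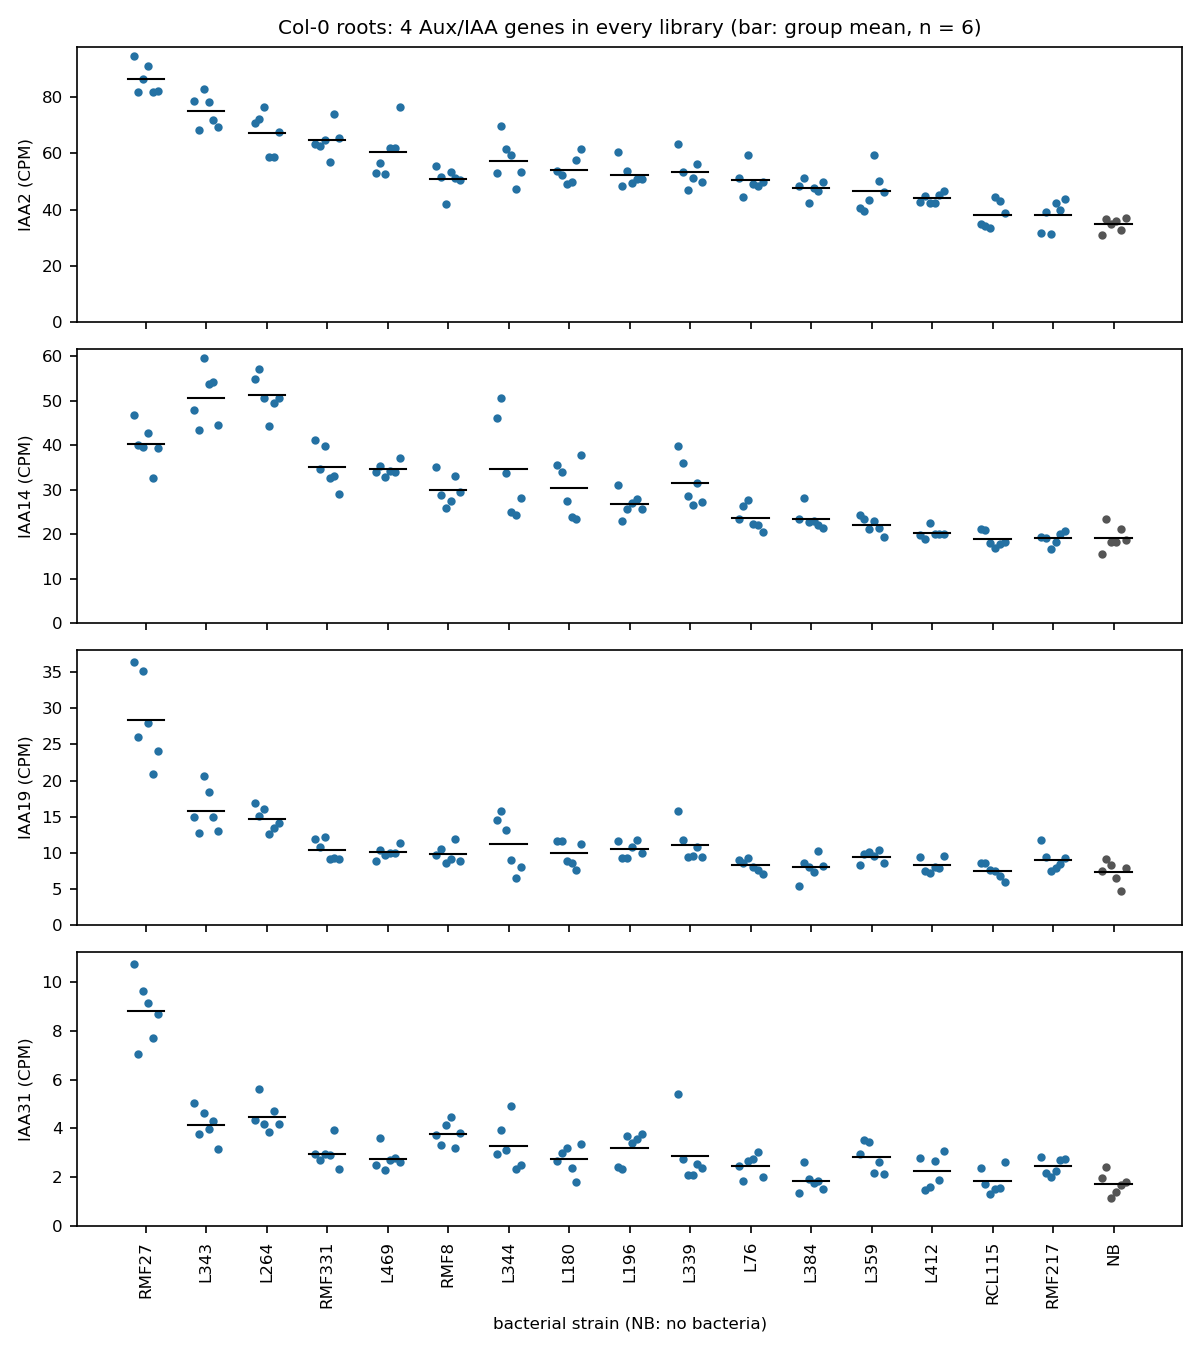
CPM of IAA2, IAA14, IAA19 and IAA31 in every Col-0 library (points) with the group mean (bar, n = 6), by strain from most to fewest members called, with NB at the right. IAA19 and IAA31 stand highest with RMF27 (20.9 to 36.5 and 7.05 to 10.7 CPM, against 4.69 to 9.15 and 1.16 to 2.43 CPM in NB), whereas IAA14 stands highest with L264 and L343.

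The same contrast within each mutant asked how the genes changed with bacteria where part of the lateral root pathway was impaired. Again IAA2 was called most often, higher in 12 of 16 contrasts, and IAA7 fell in 9. The IAA2 call in arf7 arf19 with L344 (0.20) was lost in 10 of 12 fits that each left out 1 replicate number, and with DESeq2. Members were called in 157 of 528 pairs, 130 higher and 27 lower, that is 24.6% and 5.11%, beside 12.9% and 10.8% of all pairs over all genes. IAA3 rose in 10 contrasts and fell in 1, IAA11 rose in 10, IAA14, IAA1 and IAA9 in 9 each and IAA4 in 7.

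In lbd16-1, 17 members rose with L343 (24.5% of all genes called, 13.1% higher) and 13 were called with RMF8 (27.2%). IAA14 had 45.5, 54.1 and 58.5 CPM with L343, against 11.9, 15.2 and 16.9 CPM in lbd16-1 NB (1.85 ± 0.12, adjusted p = 3.16e-31). IAA2 had 64.3, 71.9 and 82.8 CPM, against 32.6, 38.1 and 43.2 CPM (0.92 ± 0.08, adjusted p = 1e-20). Neither gene overlapped between the groups, and IAA3 (0.79) and IAA9 (0.35) rose in the same roots. Fewer members were called with L180 (9, where 22% of all genes were called), L76 (7, 20.7%), L384 (6, 21.2%), L359 (4, 16.3%), L412 (4, 12.9%) and RMF217 (1, 4.85%). IAA4, an auxin-induced repressor, had 36.8, 38.7 and 62.6 CPM with L359, against 28.5, 33.6 and 36.0 CPM in lbd16-1 NB (0.37 ± 0.08, adjusted p = 0.000214), and 1 L359 library, replicate 6, was far above the others. Without that replicate number the change was 0.23 and still called.

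In nph4-1, L344 called 8 members (22.9% of all genes), L359 3 (13.3%) and RCL115 0 (0.00924%). RCL115 also had 0 members at an unadjusted p under 0.05, and DESeq2 called 0. Of the called members, IAA7 moved most with L344, at 39.5, 44.2 and 54.2 CPM, against 58.2, 67.5 and 80.6 CPM in nph4-1 NB (-0.62 ± 0.09, adjusted p = 1.8e-08), without overlap. IAA7 also fell in lbd16-1 with 7 of 8 strains, by 0.25 to 0.45 on the log2 scale. IAA7 fell with 2 of 3 strains in nph4-1. These counts are over different strains than the 4 of 16 in Col-0, and in the direct tests of the difference given below IAA7 was called lower than in Col-0 in 1 contrast of these mutants.

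In arf7 arf19 with L344, 13 members were called, 8 higher and 5 lower (34.4% of all genes). AFB1 had 44.1, 49.3 and 65.7 CPM, against 31.0, 35.1 and 41.9 CPM in arf7 arf19 NB (0.56 ± 0.09, adjusted p = 3.71e-08), with every L344 library above NB. IAA14 rose by 0.83 on the log2 scale and IAA1 by 0.41. IAA26, known as PAP1 for its binding to phytochrome, had 47.1, 53.1 and 58.5 CPM, against 61.9, 65.3 and 69.8 CPM (-0.31 ± 0.07, adjusted p = 0.000367), again with no overlap. IAA3 (-0.28, adjusted p = 0.0356) and AFB3 (-0.19, adjusted p = 0.000781) also fell, with overlapping libraries, and the IAA3 call was lost without NB replicate 1, 2 or 5 or L344 replicate 2 or 3 (-0.23 to -0.27). Of the 6 L344 libraries, 1 had a shoot marker sum of 6120 CPM, where the group median was 613.

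In gnom184, 27 of 33 members were called with RMF27, 23 higher and 4 lower, where 61.5% of all genes were called, 32.7% higher and 28.8% lower. IAA19 had 39.4, 43.3 and 53.5 CPM, against 4.88, 5.80 and 7.13 CPM in gnom184 NB (2.91 ± 0.14, adjusted p = 6.54e-48). IAA1 had 22.2, 25.6 and 29.9 CPM, against 3.62, 4.21 and 5.33 CPM (2.61 ± 0.13, adjusted p = 3.34e-45). IAA5 had 1.98, 2.58 and 3.26 CPM, against 0.07, 0.35 and 0.49 CPM (3.00 ± 0.36, adjusted p = 9.5e-14). All 3 of these genes were separated between the groups. IAA31 rose by 2.59 and IAA11 by 0.98 on the log2 scale.

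Of the receptors, AFB1, TIR1 and AFB5 rose with RMF27 in gnom184 and AFB4 fell (-0.17 ± 0.07, adjusted p = 0.0188), while AFB2 and AFB3 were not called. AFB1 had 85.0, 106 and 114 CPM in gnom184 with RMF27, against 44.1, 45.9 and 53.2 CPM in gnom184 NB (1.14 ± 0.09, adjusted p = 1.38e-26), and TIR1 had 110, 116 and 123 CPM, against 70.3, 76.1 and 82.4 CPM (0.61 ± 0.05, adjusted p = 2.07e-21). Both were separated between the groups. AFB1 rose with each of the 4 strains in gnom184, by 0.32 to 1.14 on the log2 scale, and TIR1 with 3. The other strains called 17 members with L469 (28.4% of all genes), 15 with L196 (36%) and 13 with L339 (33.9%). The root marker sum was 528 to 701 CPM in gnom184 with RMF27, against 207 to 337 CPM in gnom184 NB, a difference that moves with these results and whose part in them was not tested. Single libraries had high shoot sums, 3420 CPM with RMF27, 3350 CPM with L469 and 1600 CPM in NB, and the count of called members was 24 with RMF27 and 13 with L469 when all 12 libraries over 2 times the median shoot sum of their group were left out, over all groups.

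Without bacteria, the comparison of each mutant with Col-0 asked whether coreceptor transcripts differ in axenic roots. In arf7 arf19, 21 members were called, 10 higher and 11 lower (46.5% of all genes), in gnom184 15, 8 higher and 7 lower (32%), in nph4-1 5, 1 higher and 4 lower (13.1%), and in lbd16-1 2, both lower (6.61%). All 4 share the Col-0 NB libraries. Over them, members were called higher in 14.4% and lower in 18.2% of pairs, beside 11% and 13.6% over all genes. AFB1 and IAA28 fell and IAA2 rose in 3 of 4 mutants each.

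AFB1 had 31.0, 35.1 and 41.9 CPM in arf7 arf19, against 65.9, 78.4 and 88.2 CPM in Col-0 (-1.11 ± 0.09, adjusted p = 1.48e-24). In gnom184 it had 44.1, 45.9 and 53.2 CPM (-0.72 ± 0.09, adjusted p = 2.21e-12) and in lbd16-1 44.4, 62.7 and 78.6 CPM (-0.33 ± 0.09, adjusted p = 0.00923). The first pair of groups and the second were separated from Col-0, and lbd16-1 overlapped with it, its call being lost without lbd16-1 NB replicate 6 (-0.25). Other receptors moved less: TIR1 fell in arf7 arf19 (-0.32) and gnom184 (-0.21), AFB2 fell in gnom184 (-0.24), AFB4 rose in arf7 arf19 (0.26) and gnom184 (0.25), and AFB5 rose in arf7 arf19 (0.24). AFB3 was called in 0 of 4 by edgeR, with 0 at an unadjusted p under 0.05 and 0 by DESeq2.

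IAA28 (AT5G25890, chr5:9033204-9035140, + strand) had 58.7, 64.7 and 76.3 CPM in arf7 arf19, against 106, 119 and 130 CPM in Col-0 (-0.83 ± 0.10, adjusted p = 1.46e-13). It had 55.4, 65.1 and 84.3 CPM in gnom184 (-0.84 ± 0.10, adjusted p = 4.79e-13) and 81.8, 92.4 and 109 CPM in nph4-1 (-0.34 ± 0.10, adjusted p = 0.00986). Only nph4-1 overlapped with Col-0 among these 3. IAA2 ran the other way, with 47.2, 50.4 and 53.0 CPM in gnom184, against 31.1, 35.4 and 36.8 CPM in Col-0 (0.54 ± 0.08, adjusted p = 1.96e-08), and rose in arf7 arf19 (0.67) and nph4-1 (0.29) as well, in no case with overlap.

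The low-level repressors IAA33 and IAA20, both without the degron core, were lower in arf7 arf19. IAA33 had 0.17, 0.24 and 0.29 CPM, against 0.62, 0.78 and 1.47 CPM in Col-0 (-1.91 ± 0.31, adjusted p = 2.6e-08), with no overlap. IAA20 had 0, 0.12 and 0.26 CPM, against 0.17, 0.30 and 0.63 CPM (-1.46 ± 0.47, adjusted p = 0.00635), with overlap and few reads. IAA19 had 2.04, 3.29 and 4.57 CPM, against 4.69, 7.64 and 9.15 CPM (-1.13 ± 0.16, adjusted p = 3.32e-10), each arf7 arf19 library below each Col-0 library. IAA27, known as PAP2, rose to 90.9, 108 and 123 CPM, against 53.8, 58.3 and 63.7 CPM (0.85 ± 0.07, adjusted p = 2.06e-22). IAA9 rose by 0.49 and IAA13 by 0.66 on the log2 scale.

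In gnom184, IAA4 rose to 39.5, 55.4 and 65.4 CPM, against 30.4, 32.9 and 36.9 CPM in Col-0 (0.73 ± 0.08, adjusted p = 3.63e-14), with no overlap. IAA17 fell to 59.5, 66.6 and 100 CPM, against 95.7, 112 and 155 CPM (-0.72 ± 0.08, adjusted p = 3.55e-15), and IAA7 to 33.3, 36.5 and 67.9 CPM, against 59.7, 68.9 and 71.7 CPM (-0.71 ± 0.09, adjusted p = 1.45e-10). In both genes single gnom184 libraries reached into the Col-0 range. In nph4-1, IAA11 (-0.33, adjusted p = 0.0171), IAA10 (-0.30, adjusted p = 0.0119) and IAA26 (-0.23, adjusted p = 0.0293) were lower, and in lbd16-1 IAA14 had 11.9, 15.2 and 16.9 CPM, against 15.6, 18.5 and 23.4 CPM in Col-0 (-0.38 ± 0.12, adjusted p = 0.0433), with overlap. Of these calls, IAA11 was lost without nph4-1 NB replicate 6 (-0.29), IAA26 without Col-0 NB replicate 1, 2 or 5 or nph4-1 NB replicate 4 or 5 (-0.21 to -0.22), and IAA14 without Col-0 NB replicate 2, 3 or 5 or any lbd16-1 NB replicate but the second (-0.32 to -0.40).

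The mutants that differed most from Col-0 also differed in tissue markers. Over the 8 shoot markers the sum was 740 to 1310 CPM in arf7 arf19 and 452 to 1600 CPM in gnom184, against 374 to 596 CPM in Col-0, and over the 8 root markers 179 to 239 CPM and 207 to 337 CPM, against 335 to 405 CPM. In nph4-1 (421 to 593 and 371 to 421 CPM) and lbd16-1 (355 to 682 and 380 to 433 CPM) the sums overlapped with Col-0. The part of these markers in the lower and higher coreceptor levels was not tested.

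**Figure D4:**
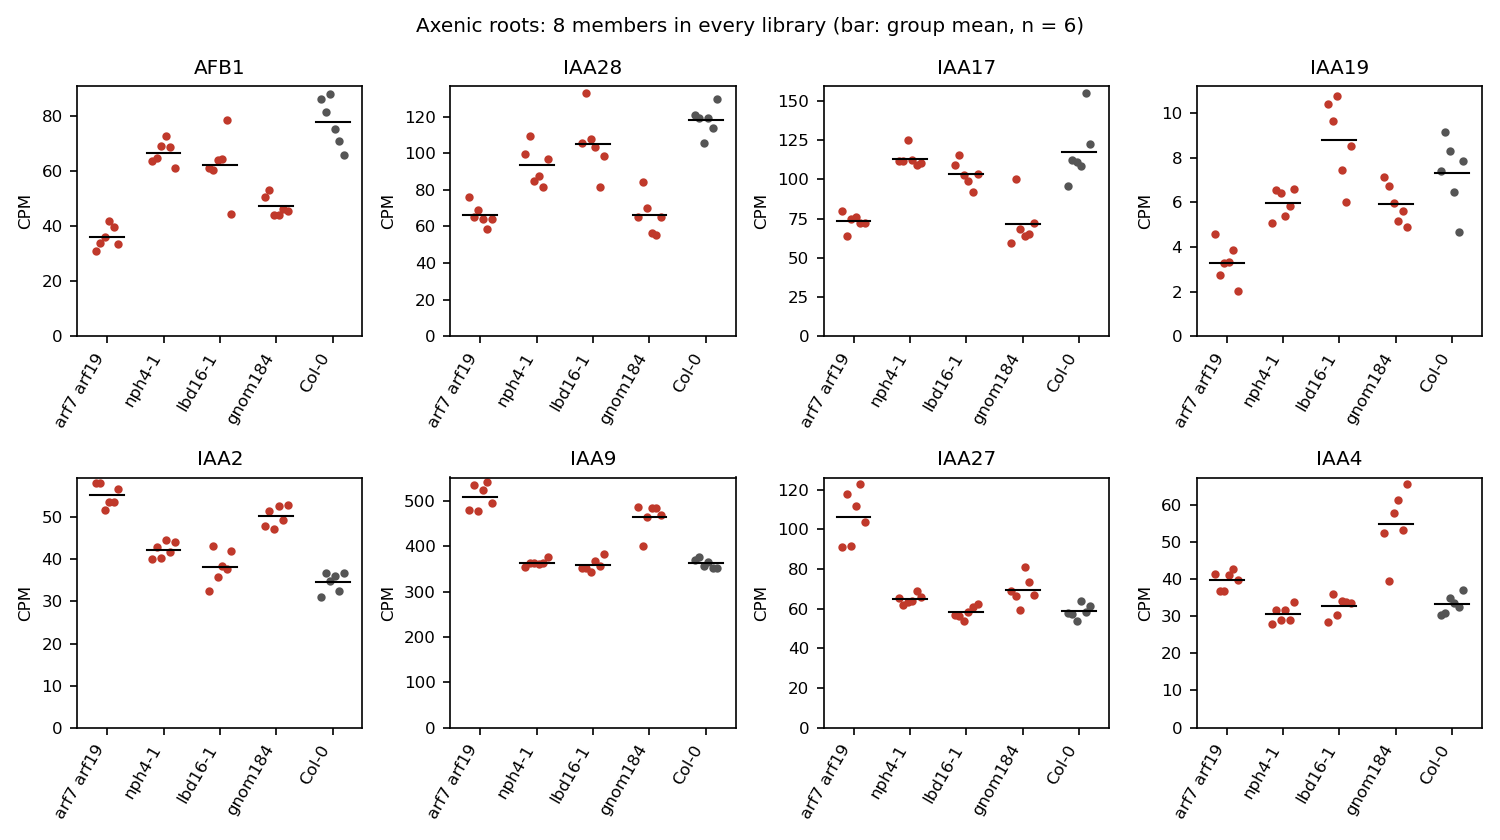
CPM of 8 members in every axenic library (points) with the group mean (bar, n = 6), for the 4 mutants (red) and Col-0 (grey). AFB1 and IAA28 lie lowest in arf7 arf19 and gnom184 (31.0 to 53.2 and 55.4 to 84.3 CPM over both, against 65.9 to 88.2 and 106 to 130 CPM in Col-0), where IAA2 lies higher.

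The difference of responses was tested directly for the 16 mutant and strain pairs, as the change in the mutant minus the change in Col-0. Members were called in 34 of 528 pairs (3.41% higher and 3.03% lower, beside 2.94% and 2.46% of all pairs over all genes), in 6 of the 16 contrasts. gnom184 with RMF27 held 15 of them, 9 higher and 6 lower (22.9% of all genes called), arf7 arf19 with L344 7 (15%), gnom184 with L339 6 (16.6%), gnom184 with L196 3 (6.76%), nph4-1 with L344 2 (4.56%) and lbd16-1 with RMF217 1 (4.21%). The share of members called was 45.5% for gnom184 with RMF27 and 21.2% for arf7 arf19 with L344.

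AFB1 responded more in gnom184 than in Col-0 with 3 strains and more in arf7 arf19 than in Col-0 with L344. With RMF27 the difference was 0.96 ± 0.12 on the log2 scale (adjusted p = 7.03e-11). AFB1 had a median of 106 CPM in gnom184 with RMF27 and 45.9 CPM in gnom184 NB, and 89.0 CPM in Col-0 with RMF27 and 78.4 CPM in Col-0 NB. The lower level of axenic gnom184 was thus not seen with RMF27, where gnom184 libraries (85.0 to 114 CPM) overlapped with those of Col-0 (81.1 to 93.2 CPM). For L196 the difference was 0.68 ± 0.12 (adjusted p = 2.33e-05), with 67.2, 80.2 and 83.4 CPM in gnom184 and 74.6, 77.8 and 89.0 CPM in Col-0. For L339 it was 0.37 (adjusted p = 0.0278, lost without Col-0 NB replicate 1, 3 or 5, gnom184 NB replicate 3 or L339 replicate 1, 4, 5 or 6), and for arf7 arf19 with L344 0.56 ± 0.12 (adjusted p = 0.000487). TIR1 also responded more in gnom184 with RMF27 (0.48 ± 0.08, adjusted p = 1.31e-07), with 110 to 123 CPM in gnom184 and 90.0 to 103 CPM in Col-0.

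Among the repressors, IAA5 (1.99 ± 0.54, adjusted p = 0.00273), IAA19 (0.95 ± 0.19, adjusted p = 5.55e-05), IAA33 (0.93, adjusted p = 0.0398), IAA1 (0.79, adjusted p = 0.000454) and IAA7 (0.52, adjusted p = 0.00127) responded more to RMF27 in gnom184 than in Col-0. IAA2 responded less there (-0.47 ± 0.11, adjusted p = 0.000854). Its levels with RMF27 were 79.6 to 99.6 CPM in gnom184 and 81.8 to 94.8 CPM in Col-0, while its axenic level was higher in gnom184 (above). The IAA33 call was lost without Col-0 NB replicate 2 or 5, gnom184 NB replicate 2, 4 or 6 or RMF27 replicate 1, 5 or 6 (0.73 to 0.88). IAA9 (-0.27, adjusted p = 2.98e-05) and IAA18 (-0.50, adjusted p = 6.31e-05) also had a lower response in gnom184.

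With L344, IAA2 responded less than in Col-0 in arf7 arf19 (-0.53 ± 0.11, adjusted p = 0.000339) and in nph4-1 (-0.38 ± 0.11, adjusted p = 0.0359). IAA31 had 1.11, 1.27 and 1.51 CPM in arf7 arf19 with L344 and 1.06, 1.62 and 1.78 CPM in arf7 arf19 NB, where Col-0 had 2.34, 3.05 and 4.91 CPM with L344 and 1.16, 1.74 and 2.43 CPM in NB, a difference of responses of -1.20 ± 0.30 (adjusted p = 0.00193). The rise with L344 was called in Col-0 and not in arf7 arf19. IAA26 differed by -0.53 ± 0.11 (adjusted p = 7.77e-05). IAA14 had 16.9, 19.3 and 20.7 CPM in nph4-1 with L344 and 13.8, 15.6 and 17.8 CPM in nph4-1 NB, where Col-0 had 24.3, 30.9 and 50.7 CPM with L344, a difference of -0.56 ± 0.17 (adjusted p = 0.034). In arf7 arf19 the response of IAA14 (0.83) was close to that of Col-0 (0.86) and their difference was not called. IAA7 with RMF217 differed between lbd16-1 and Col-0 by -0.42 ± 0.13 (adjusted p = 0.0434). Of 18 fits that each left out 1 replicate number, the call was lost in 10 for IAA2 (-0.32 to -0.37) and 9 for IAA14 (-0.37 to -0.56) in nph4-1, and in 10 for IAA7 in lbd16-1 (-0.37 to -0.44).

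In the remaining 10 contrasts edgeR called 0 members. The share of all genes called was 2.79% for nph4-1 with L359 and 0.00462% with RCL115, 3.27% for lbd16-1 with L180, 0.3% with L343, 3.88% with L359, 1.39% with L384, 0.411% with L412, 1.13% with L76 and 1.4% with RMF8, and 1.8% for gnom184 with L469. At an unadjusted p under 0.05 these contrasts had between 0 and 9 members, and DESeq2 called 0 in all 10. The rise of IAA14 and IAA2 with L343 was therefore called in lbd16-1 and in Col-0 without a called difference between them.

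**Figure D5:**
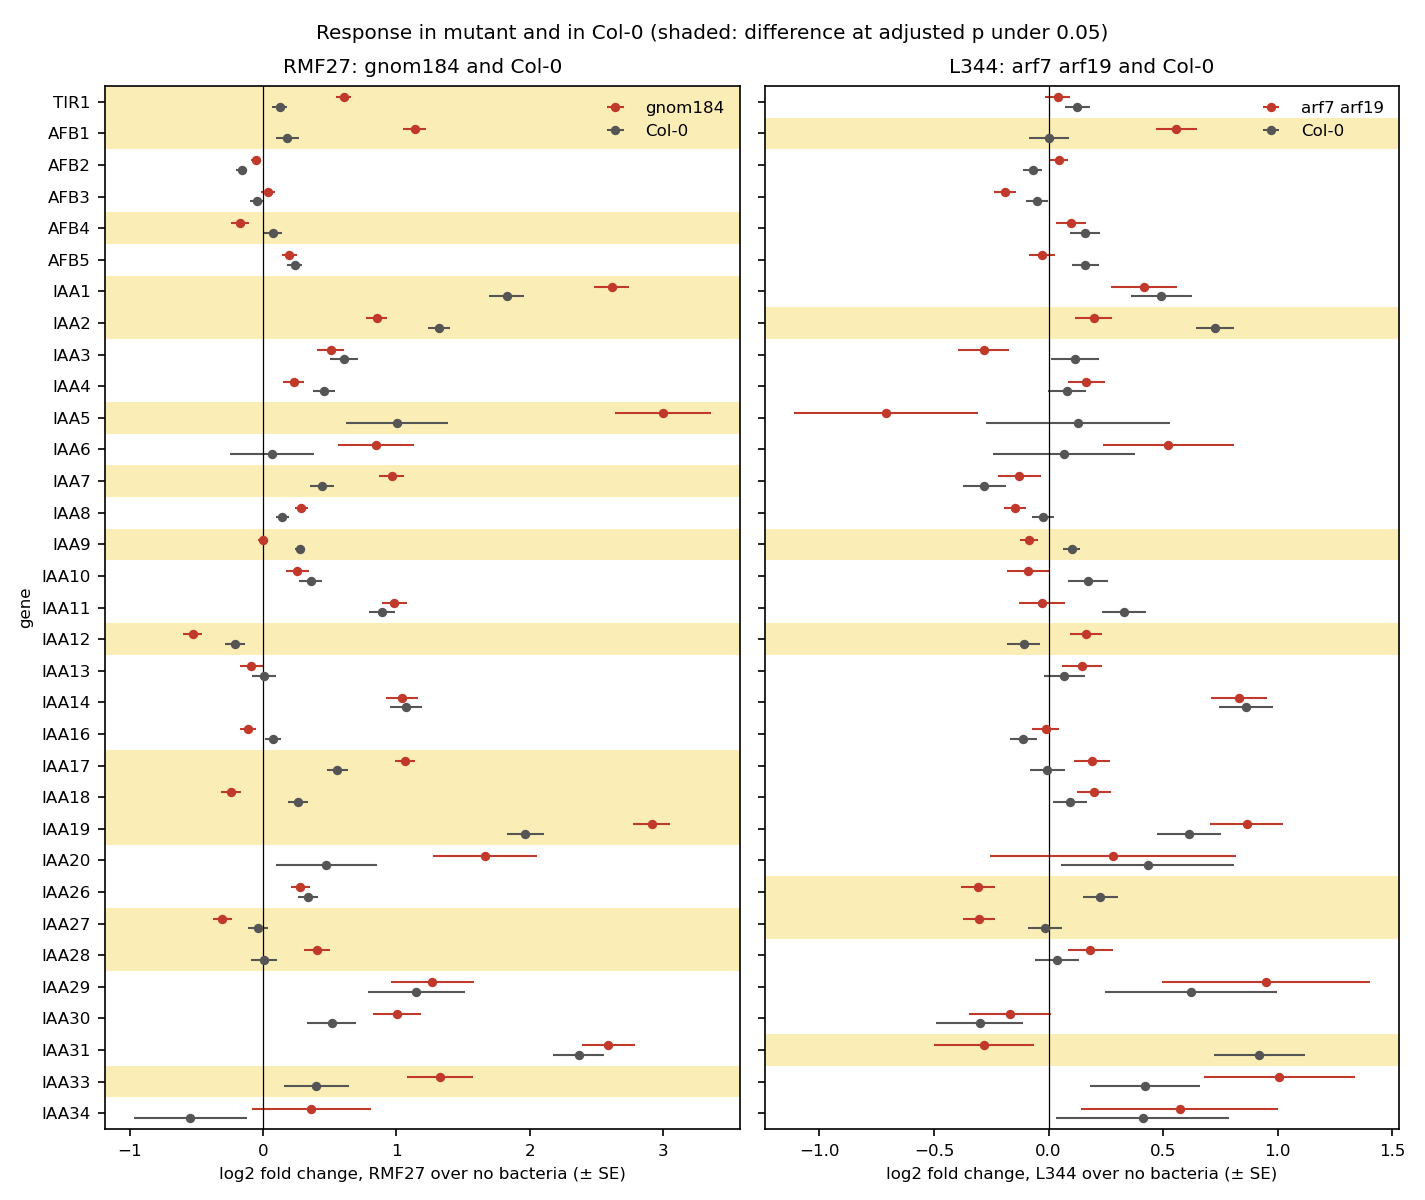
Log2 fold change (± SE) of the 33 tested members with RMF27 in gnom184 and Col-0 (left) and with L344 in arf7 arf19 and Col-0 (right), each over NB of the same genotype, with shading where the 2 responses differed at an adjusted p under 0.05. Of the 15 shaded members on the left, AFB1 responded by 1.14 in gnom184 and IAA19 by 2.91, above Col-0 in both.

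Partner genes of the pathway were taken as fixed lists. Of 23 ARF genes, the transcription factors that Aux/IAA proteins bind, 16 were tested and over the 16 Col-0 contrasts they were called higher in 71 and lower in 8 of 256 pairs. Over all genes 12.6% of pairs were called higher and 12.8% lower. ARF9 rose with 14 strains, ARF2 with 13 and ARF1 with 12, while ARF19 rose with 10 and ARF7 with 1. The 5 corepressor genes (TPL and TPR1 to TPR4) were called higher in 10 and lower in 0 of 80 pairs, a share of higher calls near the 12.6% of all genes, 8 of them TPR1, and TPR2 and TPR3 rose with 1 strain each. The 10 genes of the SCF ligase and its activation by NEDD8 were called lower in 47 and higher in 0 of 160 pairs (12.8% and 12.6% of all genes): RCE1 and RBX1 with 12 strains each, AXR1 with 11 and ASK1 with 9, with mean log2 fold changes of -0.22 for RCE1 and RBX1, -0.09 for AXR1 and -0.15 for ASK1. Of 7 GH3 genes, whose enzymes conjugate auxin to amino acids and which auxin induces, 6 were tested, with 49 pairs higher and 3 lower of 96 (12.6% and 12.8% of all genes). GH3.2 rose with 14 strains by a mean of 2.05 over all 16, GH3.5 with 11 and GH3.6 with 10. With RMF27, GH3.2 rose by 3.19 on the log2 scale. At an unadjusted p under 0.05 the corepressor genes were lower in 0 pairs and the SCF genes higher in 5, and DESeq2 called 0 of either. All 16 Col-0 contrasts share the same NB libraries. In the 16 mutant strain contrasts RBX1 and ASK1 were called lower in 0, RCE1 in 1 and AXR1 in 4. ARF9 was called higher there in 3, ARF1 in 2 and ARF2 and TPR1 in 0, whereas GH3.2 rose in 15 and ARF19 in 7. Of the 4 axenic mutants, RBX1 was lower than in Col-0 in 4 and ASK1 in 3. Whether the level of the Col-0 NB libraries has a part in the Col-0 calls was not tested.

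Across the 37 group means of log2 CPM, members were compared for likeness, as a description over groups that share genotypes and strains. Of 528 pairs the median Pearson r was 0.205, and 136 had r over 0.5. IAA1 was most like IAA19 (r = 0.96), then IAA11 (0.91) and IAA31 (0.90), whereas IAA2 had a lower r with IAA1 (0.775) and with IAA31 (0.669). IAA4 was most like IAA8 (0.89), and IAA12 like IAA13 (0.805). TIR1 and AFB1 were each other's nearest (0.88), whereas AFB4 was nearest to IAA13 (0.57), AFB5 to IAA2 (0.67), AFB2 to IAA28 (0.69) and AFB3 to IAA7 (0.52).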

How the data were processed

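The authors deposited estimated counts in whole numbers, 1 value per gene and library, from polyadenylated RNA of pooled roots. Per the submitters' processing notes and the study's methods, reads were filtered with fastp 0.20.1 and quantified with Salmon 1.6.0 on the Ensembl Plants genome, then summarized to genes with tximport. The strand setting and the tximport scaling are not given in the sources used here, and reads of overlapping genes may be split between them. Groups came from the genotype and treatment labels. Replicate numbers follow accession order and pair nothing. The titles of 2 libraries (1 of gnom184 L196, 1 of arf7 arf19 L344) do not fix a library number, and these were kept in their labelled groups. 0 columns were left unused.

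Genes were filtered with filterByExpr by group, TMM-scaled and fitted by edgeR 4.0.16 (quasi-likelihood test, R 4.3.3, robust, prior count 0.125) in 1 model of 37 groups, which shares 1 estimate of spread as the authors' own model does. Each of 52 contrasts was adjusted by Benjamini-Hochberg over all 21635 genes tested, with 0.05 as the threshold. CPM are counts over the TMM-scaled total of the tested genes. The smallest library held 10255732 counts and the largest 29735838, so IAA5, IAA20, IAA33 and other genes under about 1 CPM rest on few reads. P-values set a change against the spread between libraries of a group, estimated over all 37 groups and not from 6 libraries alone. The median SD of log2 CPM over the members was 0.164 in Col-0 NB and 0.175 in Col-0 with L344. These were ranks 4 and 2 from the highest of the 37 groups. The labels do not say which repeat of the experiment a library belongs to.

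The alternatives were DESeq2 1.42.0, RLE size factors, library totals alone, no filter, a stricter filter (1 CPM or more in 6 libraries and a total of 1000 counts), the groups of a contrast alone, the range of the library number as a covariate, an adjusted p under 0.01, an absolute log2 fold change of at least 1, leaving out libraries, and CPM by library totals for levels. The tests were tested on simulated data first. The members and lists were chosen with earlier results of these data known. Named were all TIR1/AFB genes, the 8 Aux/IAA genes called in most contrasts of Col-0 and of the mutants, up to 6 called members of largest change per axenic or difference contrast, members that failed the filter, and ARF7, ARF19 and 3 genes of most calls per pathway list. Other members named beside them (IAA5, IAA13, IAA18 and ASK1 among them) were chosen after their values were seen. Gene models, sequences and exon lengths are from RefSeq TAIR10.1, which matched all 35 members.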

Additional observations from a re-analysis of the deposited data

Results flagged for a closer look

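Within 98 sets of 6 libraries screened (members with values printed per group), 6 held a library far from the other 5, and chance alone gives this in about 1 in 20 sets. In gnom184 NB, replicate 2 stood apart in a pair of genes: IAA7 at 67.88 CPM (the next library had 41.8 and the lowest 33.33 CPM) and IAA17 at 100 CPM (next 72.28, lowest 59.47 CPM). That library also had the highest shoot marker sum of its group, 1600 CPM, and the highest root marker sum, 337 CPM, whose part in the 2 values was not tested. Without replicate 2 of each mutant, the log2 difference of gnom184 NB from Col-0 NB was -0.90 for IAA7 and -0.84 for IAA17. IAA4 in lbd16-1 with L359 had a highest library of 62.61 CPM (next 40.07, lowest 36.8 CPM). Lowest libraries stood apart for IAA7 in Col-0 NB at 59.67 CPM (next 68.14, highest 71.68 CPM), for IAA31 in arf7 arf19 NB at 1.062 CPM (next 1.571, highest 1.779 CPM) and for IAA11 in nph4-1 NB at 5.128 CPM (next 6.087, highest 6.323 CPM).

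In 34 pairs of a member and a mutant the response to a strain differed from that in Col-0 by a test of the difference itself (edgeR's quasi-likelihood test), given here as log2 values, mutant minus Col-0. In gnom184 with RMF27 the higher responses were IAA5 (1.994), AFB1 (0.956), IAA19 (0.9454), IAA33 (0.927), IAA1 (0.7872), IAA7 (0.5224), IAA17 (0.5067), TIR1 (0.4805) and IAA28 (0.3988). The lower ones there were IAA18 (-0.503), IAA2 (-0.4661), IAA12 (-0.3189), IAA9 (-0.2729), IAA27 (-0.2667) and AFB4 (-0.2466). In gnom184 with L339 the values were 0.6715 for IAA1, 0.4051 for IAA7, 0.3664 for AFB1, 0.3254 for IAA17, -0.2462 for AFB5 and -0.4384 for IAA2, and with L196 0.6844 for AFB1, 0.6075 for IAA14 and 0.4387 for IAA26. In arf7 arf19 with L344 they were 0.5553 for AFB1, 0.2733 for IAA12, -0.1854 for IAA9, -0.288 for IAA27, -0.5287 for IAA2, -0.5347 for IAA26 and -1.202 for IAA31. In nph4-1 with L344 they were -0.3757 for IAA2 and -0.5602 for IAA14, and in lbd16-1 with RMF217 -0.4188 for IAA7.

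Some of these calls were lost when 1 replicate number was left out (18 fits each). With L344 in arf7 arf19 this was IAA12 in 11 fits (0.17 to 0.29), IAA27 in 8 (-0.21 to -0.29) and IAA9 without the second replicate of the bacterial groups (-0.15). IAA14 in gnom184 with L196 was lost without the sixth (0.48). With L339 in gnom184 it was IAA7 in 9 fits (0.33 to 0.39), IAA17 in 6 (0.22 to 0.31, the lowest without Col-0 NB replicate 5) and AFB5 in 3 (-0.22 to -0.24), and with RMF27 IAA27 in 6 (-0.22 to -0.28), IAA28 in 6 (0.33 to 0.38) and AFB4 in 5 (-0.22 to -0.25). IAA2 in gnom184 kept its lower response and its call with both strains in all of these fits. In the libraries of the upper range of library numbers alone, gnom184 with RMF27 had 8 called differences, beside 15 with all libraries. There IAA17 (0.22), IAA28 (0.16), IAA7 (0.19) and IAA33 (0.46) were not called.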

How the results depend on the processing

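Checked were 92 single-gene values, a part of those printed above. TIR1 in Col-0 with RMF27 over NB and AFB4 in gnom184 with RMF27 over NB were among the values not checked. Of the 92, 0 changed direction under any alternative, 15 kept their call throughout and 24 changed their call when 1 replicate number was left out. DESeq2 and RLE size factors each changed the call of 1 (IAA2 in arf7 arf19 with L344), library totals of 6, no filter of 8, the stricter filter of 2, leaving out the libraries of open title of 3 and the library number range as a covariate of 0. More calls were lost with the groups of a contrast alone (24 of 91, with 1 gained) and with an adjusted p under 0.01 (24). The libraries of the lower number range alone lost 25, those of the upper range 36, and an absolute log2 fold change of at least 1 lost 72. With an absolute log2 fold change of at least 1 as a further demand, members higher numbered 16 over the Col-0 contrasts (128 in the fit reported above), 23 over the mutants (130), 0 over the axenic contrasts (19) and 1 over the differences of response (18), and members lower 0 (13), 0 (27), 4 (24) and 1 (16). An adjusted p under 0.01 left 5 members lower in Col-0, 15 lower in the mutants, and 11 higher and 7 lower differences of response. Fitting only the groups of a contrast left 10 higher and 8 lower differences, and moved the count of called members by over 1.5 times in 17 of 39 contrasts, L344 in Col-0 to 3 of 10 among them; why was not tested. Leaving out 1 replicate gave 104 to 127 higher and 10 to 15 lower in Col-0, 113 to 127 higher and 24 to 35 lower in the mutants, 18 to 21 higher and 21 to 28 lower axenic, and 12 to 22 higher and 10 to 20 lower differences, the 10 without the third bacterial replicate. A fit that left out a replicate of NB was made only for the contrasts that use it, and bacterial and mutant NB replicates were dropped by number over all such groups at once. Chosen after seeing the data, the libraries of the lower number range alone (3 per group) gave 84 higher in the mutants and 9 lower differences, and those of the upper range 8 lower in Col-0, with the sample number per group at 3. In single genes the ranges differed most for the lower response of IAA14 in nph4-1 with L344 (-0.15 in the lower range and -0.86 in the upper). Leaving out 12 libraries of high shoot marker sum, also chosen after seeing the data, changed 5 calls, AFB1 in Col-0 with L359 (-0.20) among them, and gave 2 called differences in gnom184 with L469, where 0 were called with all libraries. No scaling moved the median of all genes by over 0.1 on the log2 scale. No paired analysis was possible because the replicate numbers follow accession order and no label gives groups a shared number. Depth limits IAA5, IAA20 and IAA33, at under about 1 CPM, and the untested IAA15 and IAA32.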
